A study of Ovis aries with 24 samples.

Results

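The mitochondrial ribosomal protein genes were followed across skeletal muscles of callipyge sheep and of sheep with other genotypes at the callipyge locus. Members were all single gene symbols of the platform's probe-to-gene table that start with MRPL or MRPS and a number. They were 67 of 9155 symbols, 43 named MRPL and 24 named MRPS, and each was read from its probe set of highest mean log2 signal over all arrays. The mitochondrial ribosome makes the few proteins that the mitochondrial genome encodes, all of them parts of the oxidative phosphorylation complexes. Its proteins are encoded in the nucleus, made in the cytosol and imported. Some descend from proteins of the bacterial ribosome and others exist in mitochondria only, and muscle depends on the ribosome they form because contraction draws on oxidative phosphorylation.

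RNA from cross-bred sheep had been hybridised to bovine Affymetrix arrays, 24 in 12 groups of 2. The callipyge trait, an enlargement of muscle after birth, appears in the paternal heterozygote CN. It is absent from CC (homozygous for the mutation), NC (the maternal heterozygote) and NN (the wild type). Longissimus dorsi (LD), a back muscle, was sampled in CN, CC, NC and NN lambs at 11 to 12 weeks of age (T12) and within 5 days of birth (T0). Supraspinatus (SS), a shoulder muscle, was sampled at T12 in CN and NN lambs. Semitendinosus (ST) and a muscle coded SM, whose full name differs between labels, were sampled at T12 in NN lambs. Some T12 descriptions also carry the word birth, and the age in the titles was used.

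The arrays of a group are technical replicates per the labels, and the number of animals behind an array is not known. The labels' protocol speaks of LD from 8 male lambs, with 4 lambs in each of only 2 genotypes, although 4 genotypes were hybridised. A difference between genotypes therefore cannot be told apart from one between single animals or pools, and p-values measure the spread between group values. Log2 signals of paired arrays correlated at 0.974 to 0.988 among probe sets that averaged above 8. All 10 skeletal muscle marker genes on the array were above 47.4, the lowest array median, in every array. In whole muscle, fewer cells of a type and less RNA per cell cannot be told apart.

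By subunit, 25 members were large-subunit proteins with a bacterial homologue (such as MRPL2, MRPL13 and MRPL16) and 20 were large-subunit proteins found in mitochondria only (such as MRPL41, MRPL57 and MRPL58). MRPS18A and MRPS30 belong to the large subunit despite their names and were counted with these 20. The small subunit gave 12 proteins with a bacterial homologue (such as MRPS5, MRPS6 and MRPS24) and 9 found in mitochondria only (such as MRPS26, MRPS31 and MRPS34). MRPS36, also named KGD4, is known in other species as a part of the 2-oxoglutarate dehydrogenase complex and was kept apart. Signal exceeded 47.4 on every array for 59 members and was below it on some for 8. All members except MRPS2 passed the filter on dim probe sets, which left 66 tested.

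The family stood above the array as a whole. The median MAS5 signal of the 67 members was 405 to 634 across the 12 groups, against 102 to 114 for all 9155 symbols. These are brightnesses of probe sets, which do not rank genes by transcript abundance. At T12, the LD median was 405 in CN, 448 in CC, 465 in NC and 467 in NN. In newborn LD it was 518 in CN, 535 in CC, 611 in NC and 634 in NN. Among the other T12 muscles it was 438 in SS of CN, 453 in SS of NN, 527 in SM and 455 in ST. The group medians were thus highest in newborn LD of NN and NC and lowest in T12 LD of CN. The median of all symbols was also lowest in T12 LD of CN, at 102, against 107 to 114 in the other groups.

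**Figure D1:**
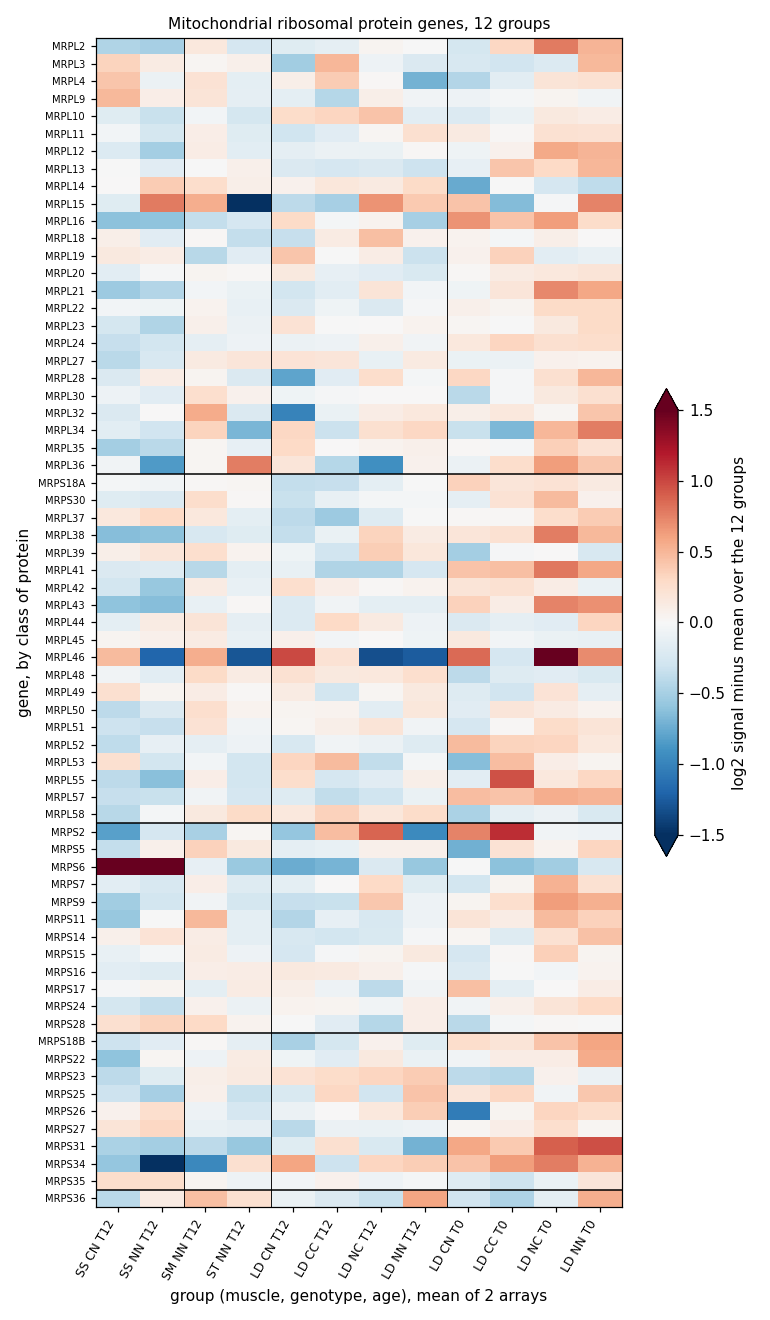
Level of each of the 67 members (rows, grouped by subunit and by origin) in each of the 12 groups (columns). Colour is the log2 MAS5 signal of the group, as the mean of its 2 arrays, minus the member's mean over the 12 groups, capped at 1.5 in either direction. MRPS6 stands out in the SS columns, and most rows are warm in newborn LD of NN and NC.

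Members did not move as a block. Over the 12 groups, 31 of 66 members correlated above 0.5 with the mean profile of the others, and 13 correlated below 0. MRPL2 (0.97), MRPL12 (0.95) and MRPL21 (0.92) lay closest to that profile, while MRPS6 (−0.50), MRPL45 (−0.49) and MRPL19 (−0.43) lay farthest from it. MRPL12, a protein of the stalk that binds elongation factors, was thus among the members that followed the family most closely. Among members whose mean log2 signal exceeded that of the median probe set, group means of MRPS6 spanned 8.29-fold and those of MRPS34 6.82-fold, followed by MRPS31 (3.20-fold), MRPL55 (2.97-fold), MRPL32 (2.94-fold) and MRPL34 (2.75-fold). The dimmer MRPL46 (7.10-fold), MRPL15 (6.09-fold), MRPS2 (4.18-fold) and MRPL36 (3.21-fold) also had wide spans, at signals near or below the lowest array median. The narrowest spans were those of MRPL45 (1.19-fold), a protein at the exit of the peptide tunnel, MRPS16 (1.28-fold) and MRPL20 (1.33-fold). The span was 1.42-fold for MRPL22, 1.44-fold for MRPL49 and 1.46-fold for MRPL11.

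Outside the family, the genes whose 12 group means correlated most closely with its mean profile were ATP5MC1 (0.97), a subunit of ATP synthase, and NDUFS4 (0.96), a subunit of complex I. SMDT1 (0.96), a part of the mitochondrial calcium uniporter, NDUFV3 (0.95), also of complex I, and the symbol CHGA (0.95) came next. The points share arrays and scaling, so these are descriptions.

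The comparison of ages gave more calls than any comparison of genotypes, among members and among all probe sets alike. It set 3 group values against 3, while CN was 1 value against 3 in LD and 1 against 1 in SS. In LD of CC, NC and NN, 8 of 66 tested members fell with age and 3 rose (limma adjusted p under 0.05). The total was 16.7% of members, where 12.2% of all 15153 probe sets were called. Among all probe sets 6.01% fell and 6.16% rose. At an unadjusted p under 0.05 there were 26 members (39.4%, against 26.9% of all probe sets). The median log2 difference over the 67 members was −0.16, with 51 of them lower at T12, beside a median of 0.02 over all symbols. By class, 4 members with a bacterial homologue fell and 0 rose in the large subunit. Of the mitochondria-only members, 3 fell and 2 rose in the large subunit, and 1 fell and 1 rose in the small subunit. None of the 11 tested small-subunit members with a bacterial homologue was called, although 11 of the 12 on the array were lower at T12 (median −0.17).

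MRPL41, a large-subunit protein found in mitochondria only, had signals of 439 to 727 (median 564) in T12 LD of CC, NC and NN, against 967 to 1362 (median 1108) in newborn LD. Its arrays of the 2 ages did not overlap, and it fell by 0.99 ± 0.13 (SE) on the log2 scale (limma adjusted p = 0.00122). CN lambs, which were not in that test, had 798 and 582 at T12 against 908 and 1094 at T0. MRPL57, another such protein, had 481 to 857 (median 600) at T12 and 971 to 1141 (median 1003) at T0. The ages again did not overlap (−0.75 ± 0.12, limma adjusted p = 0.00315), and CN had 666 and 625 at T12 against 1004 and 1024 at T0. MRPL43, also of this class, had 1541 to 2576 (median 2126) at T12 and 2166 to 3952 (median 3439) at T0. Here the arrays overlapped (−0.63 ± 0.15, limma adjusted p = 0.0229). Its call was lost without LD CC T0 replicate 2 (−0.58) or LD NN T12 replicate 1 (−0.51).

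Of the large-subunit proteins with a bacterial homologue, MRPL13 had 396 to 514 (median 454) at T12 and 635 to 905 (median 704) at T0. In CC, NC and NN no T12 array reached a T0 array, and it fell by 0.67 ± 0.12 on the log2 scale (limma adjusted p = 0.00541). In CN its signals were 458 and 475 at T12 and 499 and 495 at T0, close together at both ages. MRPL16 had 419 to 739 (median 677) at T12 and 803 to 1091 (median 963) at T0, again without overlap (−0.60 ± 0.16, limma adjusted p = 0.0357). MRPL2, which lies near the catalytic centre of the ribosome, had 835.0 to 1239 (median 953) at T12 and 1182 to 1787 (median 1458) at T0. Its ages overlapped (−0.57 ± 0.13, limma adjusted p = 0.0202), and CN had 978 and 829 at T12 against 839 and 857 at T0. MRPL20, known in bacteria for its part in early assembly of the large subunit, had 1498 to 2234 (median 1943) at T12 and 2086 to 2573 (median 2422) at T0. The arrays overlapped and the fall was small (−0.33 ± 0.09, limma adjusted p = 0.0395). The call of MRPL16 was lost without LD NN T12 replicate 1 (−0.68) and without replicate 2 of LD NC T12 (−0.59), LD CC T12 (−0.56), LD NN T0 (−0.57) or LD CC T0 (−0.55). MRPL2 lost it without replicate 2 of LD NN T12 (−0.47) or of LD NC T12 (−0.52). MRPL20 lost it without replicate 2 of LD NN T12 (−0.24), LD NC T12 (−0.25), LD CC T12 (−0.31), LD NN T0 (−0.33) or LD NC T0 (−0.29), and without LD CC T0 replicate 1 (−0.28).

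In the small subunit, MRPS31, found in mitochondria only, had 277 to 549 (median 390.2) at T12 and 589 to 918 (median 849) at T0. The ages did not overlap, and it fell by 0.99 ± 0.23 on the log2 scale (limma adjusted p = 0.0198). CN had 398 and 412 at T12 and 646 and 725 at T0, on the same sides. The members that rose were MRPS23, MRPL48 and MRPL58. MRPS23, of the mitochondria-only class, had 1116 to 1386 (median 1216) at T12 and 722 to 1107 (median 919) at T0, with no overlap (0.48 ± 0.14, limma adjusted p = 0.0445). MRPL48 had 783 to 1033 (median 904) at T12 and 613 to 789 (median 682) at T0, with a narrow overlap (0.38 ± 0.11, limma adjusted p = 0.0423). MRPL58, a peptide release factor that became part of the large subunit, had 602 to 1223 (median 972) at T12 and 498 to 948 (median 652) at T0. Its ages overlapped widely (0.42 ± 0.11, limma adjusted p = 0.0337).

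Calls of the members that rose depended on single arrays. MRPS23 lost its call without replicate 1 of LD NC T0 (0.44) or LD CC T0 (0.48), and without replicate 2 of LD NN T12 (0.43), LD NC T12 (0.48), LD CC T12 (0.45), LD NN T0 (0.47) or LD CC T0 (0.48). MRPL48 lost it without replicate 1 of LD NN T12 (0.34), LD NC T12 (0.36), LD CC T12 (0.33), LD NN T0 (0.37), LD NC T0 (0.34) or LD CC T0 (0.32), and without LD NC T12 replicate 2 (0.40). MRPL58 lost it without replicate 2 of LD NN T12 (0.31), LD NC T12 (0.25), LD CC T12 (0.31) or LD NC T0 (0.35), and without LD CC T0 replicate 1 (0.27). MRPL41, MRPL57, MRPL13 and MRPS31 kept theirs in all 24 fits that left out 1 array. The count of 11 was 5 when replicate 2 of LD NC T12 was left out, and 7 without replicate 2 of LD NN T12 or replicate 1 of LD CC T0. With CC as a cell of its own, 9 members were lower and 0 higher at T12, so that MRPS23, MRPL48 and MRPL58 all lost their calls, as did MRPL16 and MRPL20. Fits on single arrays with group as a random block called 19 lower and 2 higher, among them neither MRPL58 nor MRPL20. Those fits estimated the correlation between arrays of a group at 0.023, and so counted technical arrays nearly as independent values. Shares of all probe sets called under these alternatives are not given here, and the 12.2% belongs to the reported fit. MRPL20 was called in 2 of the 9 alternatives other than leaving out an array, and it lost its call after quantile normalization and with no filter on dim probe sets as well. MRPL43 and MRPL20 lost theirs with the mean over a symbol's probe sets. Without an intensity trend in the variance only MRPL41 was called.

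**Figure D2:**
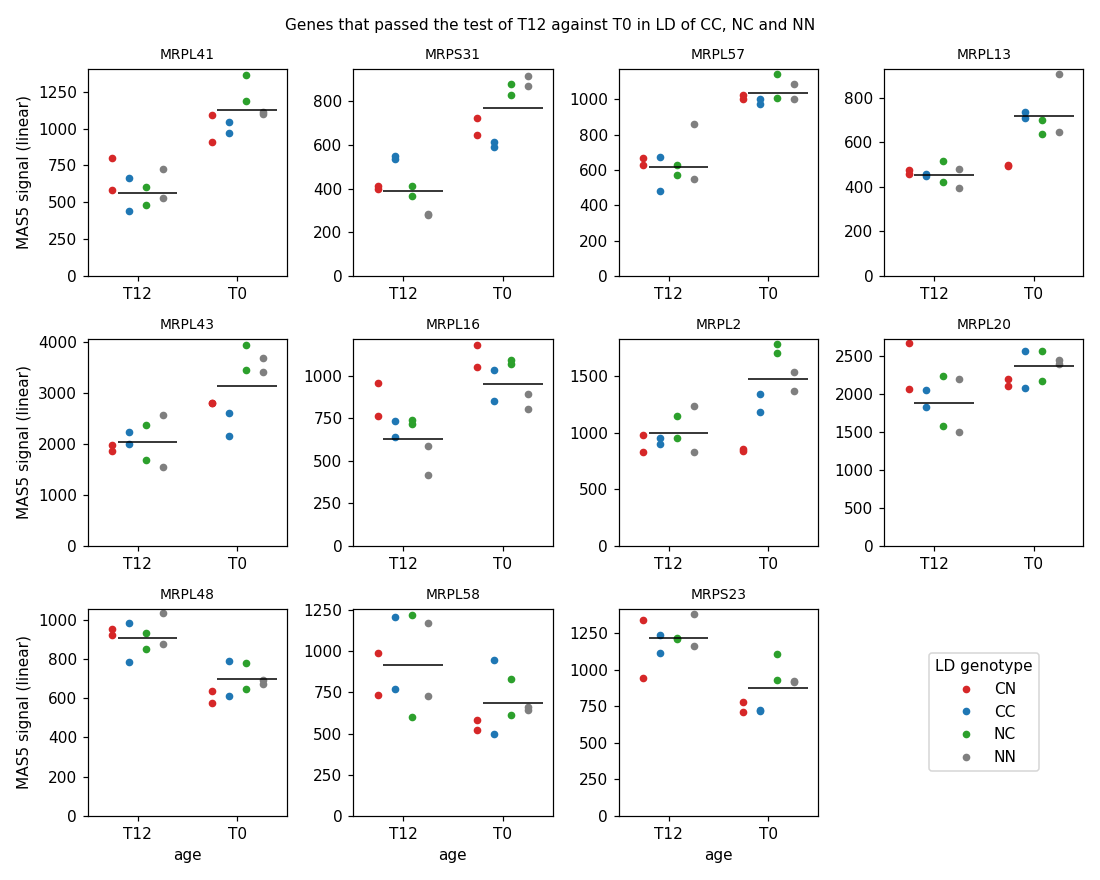
MAS5 signal (linear axis) of the 11 members called with age in LD, one panel per gene, T12 left of T0. Points are single arrays coloured by genotype, and the horizontal line at each age is the mean of CC, NC and NN. Among the CC, NC and NN arrays, MRPL41, MRPL57, MRPL13, MRPL16 and MRPS31 lay lower in every T12 array than in any newborn one. MRPS23 lay higher in the same way.

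Counted by overlap of the 6 T12 and 6 T0 arrays, 6 of 66 members were wholly lower at T12 (9.09%, where 5.13% of all probe sets were). These were MRPL13, MRPL16, MRPL24, MRPL41, MRPL57 and MRPS31. MRPS23 alone was wholly higher (1.52%, where 4.79% of all probe sets were). In CN, 9 of the 11 called members differed with age in the same direction, and MRPL20 (0.13) and MRPL2 (0.09) did not. Among the 9, MRPL13 differed by only −0.09. The same share among all probe sets called with age is not given here. Of the probe sets not chosen for a member, 13 for 11 symbols could be tested. Their differences with age had the direction of the chosen probe set in 12 of the 13, and 0 were called by limma in any comparison. The other probe sets of MRPL57 (−0.24), MRPL43 (−0.23) and MRPL20 (−0.02) differed less with age than the chosen ones (limma adjusted p = 0.462, 0.334 and 0.935).

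Other parts of the mitochondrial translation system gave a mixed count with age, where 12.2% of all probe sets were called (6.01% lower and 6.16% higher). Of 12 translation factors, 2 fell and 0 rose (median −0.32). MTFMT, which formylates the initiator tRNA, averaged 116 to 159 in the T12 groups and 243 to 316 in the newborn groups (−1.04 ± 0.18, limma adjusted p = 0.00474). TUFM, the elongation factor that brings aminoacyl-tRNA to the ribosome, averaged 1153 to 1381 in the T12 groups and 1718 to 2499 in the newborn groups (−0.71 ± 0.15, limma adjusted p = 0.0105). Of 25 tested genes for ribosome assembly and rRNA modification, 3 fell and 1 rose (median 0.06). C1QBP (−0.77, limma adjusted p = 0.00448) and MPV17L2 (−1.06, limma adjusted p = 0.0098) fell, and FASTKD2, an RNA-binding protein of the matrix, rose (0.50, limma adjusted p = 0.0137). None of 6 genes listed as subunits under other names was called (median −0.17), although OXA1L among them is no subunit. GADD45GIP1 came closest (−0.43, limma adjusted p = 0.0819). None of 15 aminoacyl-tRNA synthetases (median −0.06; CARS2 −1.34, limma adjusted p = 0.1) or 10 genome maintenance genes (median −0.07; MGME1 −0.50, limma adjusted p = 0.164) was called.

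The lists that follow stand beside 6.01% of all probe sets that fell with age and 6.16% that rose. Of 24 genes for protein import, the route by which every ribosomal protein enters mitochondria, 6 fell and 0 rose (median −0.20). They included the chaperones of the intermembrane space TIMM9 (−1.31, limma adjusted p = 0.00174) and TIMM8A (−0.99, limma adjusted p = 0.0073), and the translocase receptor TIMM50 (−0.73, limma adjusted p = 0.00306). Among 10 regulators of mitochondrial biogenesis, MYC fell (−1.05, limma adjusted p = 0.0116) and no other was called (median 0.07). The 80 oxidative phosphorylation genes gave 19 that fell and 3 that rose (median −0.18), with COX7A2 (−1.63), NDUFA10 (−0.85) and ATP5MC1 (−0.60) of smallest p. Of 66 tested cytosolic ribosomal proteins, 23 fell and 1 rose (median −0.25), led by RPL29 (−0.78), RPS6 (−0.68) and RPL8 (−0.71). Medians of the cytosolic and mitochondrial ribosomal proteins were thus both below that of all symbols.

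Marker levels also moved with age. The summed signal of 13 fibroblast and matrix markers was 45723 to 62253 per array at T12 and 68699 to 80031 at T0. That of 10 skeletal muscle markers was 171063 to 208206 at T12 and 137949 to 161446 at T0, and 17 proliferation markers summed to 1471 to 1685 at T12 and 1627 to 2332 at T0. The sum of 8 red blood cell markers was 242 to 391 at T12 and 419.7 to 733 at T0, and that of 11 immune markers was 903 to 1177 at T12 and 614 to 783 at T0. Array medians were 53.6 to 58.0 at T12 and 50.1 to 52.9 at T0. The log2 ratio of the 3′ to the 5′ GAPDH control probe set is a measure of RNA quality. It was 0.0433 to 0.246 at T12 and 0.131 to 0.307 at T0. The part of these in the values of the ribosomal proteins was not tested.

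**Figure D3:**
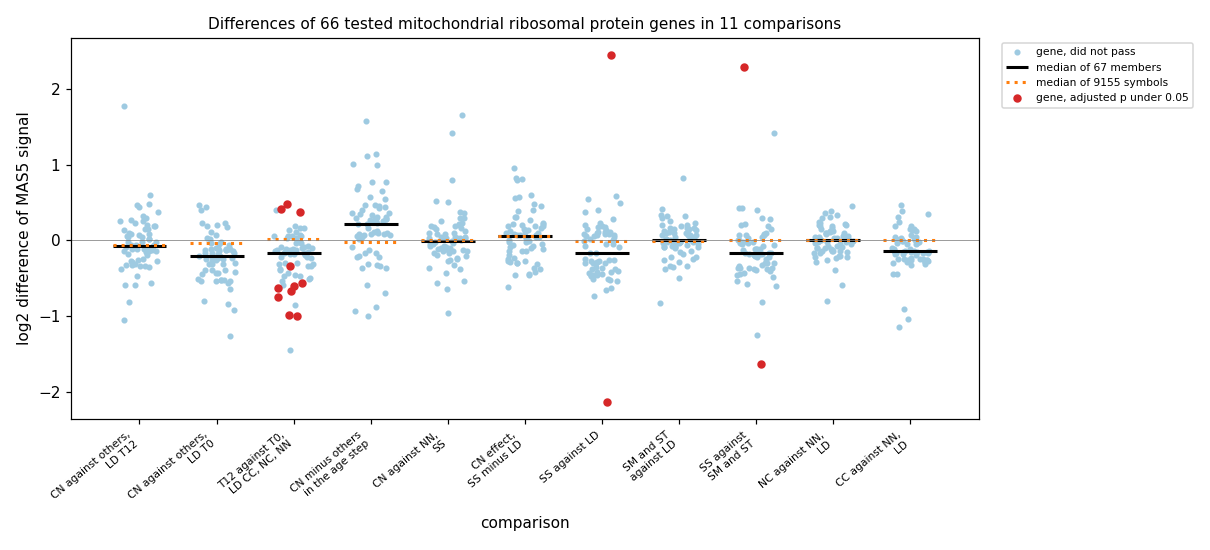
Log2 difference of each of the 66 tested members (points) in each of the 11 comparisons, with members past adjusted p 0.05 in red. The black line is the median over the 67 members and the dotted orange line the median over all 9155 symbols. The age comparison holds 11 red points, and each comparison of SS with other muscles holds MRPS6 above and MRPS34 below.

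The callipyge comparison asked whether the family differed in LD of CN lambs, which develop the trait, from that of CC, NC and NN lambs. At T12 limma called 0 of 66 members, where 0.139% of all probe sets were called. At an unadjusted p under 0.05 there were 5 members (7.58%, against 10.1% of all probe sets). The median over 67 members was −0.07, beside −0.06 over all symbols, and 40 were lower in CN. Fits on single arrays with group as a random block also called 0. Arrays of CN lay wholly below the 6 others for MRPL28, MRPL32 and MRPL38 (4.55%, where 7.67% of probe sets did) and wholly above for MRPL16 and MRPL19 (3.03%, where 5.17% did).

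MRPL32, known in yeast and mouse to be cut by a mitochondrial protease before it joins the ribosome, had 30.5 and 31.9 in CN, against 52.3 to 85.7 in CC, NC and NN at T12. This difference (−1.05 ± 0.36, limma adjusted p = 0.318) lay near the lowest array median. MRPL28 had 60.7 and 119 in CN and 121 to 179 in the others (−0.81 ± 0.28, limma adjusted p = 0.326), and MRPL38 had 367 and 345 against 423 to 580.0 (−0.48, limma adjusted p = 0.561). MRPL16 lay the other way, at 955 and 766 in CN and 419 to 739 in the others (0.44, limma adjusted p = 0.574). MRPL19 had 293 and 417 in CN and 184 to 286 in the others (0.48, limma adjusted p = 0.597). MRPL46 was dim and spread, at 126 and 40.5 in CN and 12.0 to 98.4 in the others (1.78 ± 0.80, limma adjusted p = 0.492). Other members of small p were MRPL18 (−0.56), MRPL20 (0.32), MRPS27 (−0.32) and MRPL3 (−0.59), with limma adjusted p of 0.406 to 0.615. MRPS27, a pentatricopeptide repeat protein, turned on single arrays, at −0.88 (limma adjusted p = 0.0352) without LD CN T12 replicate 1 and 0.24 without replicate 2. MRPL28 was called without LD CN T12 replicate 2 (−1.29, limma adjusted p = 0.0396).

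In newborn LD, before the trait develops, most members were lower in CN. Of the 67 members, 54 were lower, with a median of −0.20 beside −0.04 over all symbols, and the median stayed at −0.21 after quantile normalization. Limma called 0 of 66, where 0.172% of all probe sets were called. At an unadjusted p under 0.05 there were 9 members (13.6%, against 11.8% of all probe sets). Fits on single arrays with group as a random block called 4 (MRPL2, MRPL21, MRPS5 and MRPS26). Those fits count the technical arrays of a group nearly as independent values. The share of all probe sets called in them is not given here, and the 0.172% belongs to the reported fit. Both CN arrays lay below all 6 of the others for 16 of 66 members (24.2%, where 9.83% of all probe sets did). These were MRPL2, MRPL4, MRPL13, MRPL21, MRPL24, MRPL30, MRPL39, MRPL50, MRPL51, MRPL53, MRPL55, MRPS5, MRPS9, MRPS15, MRPS24 and MRPS26. Only MRPL45 and MRPS17 lay wholly above (3.03%, where 8.53% did).

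MRPS26, a small-subunit protein found in mitochondria only, had 130 and 72.4 in newborn CN, against 206 to 269 (median 226) in CC, NC and NN. The groups did not overlap, and the difference was −1.26 ± 0.24 (limma adjusted p = 0.0585). It passed the threshold without LD CN T0 replicate 1 (−1.68, limma adjusted p = 0.0121). MRPL2 had 839 and 857 in CN and 1182 to 1787 (median 1458) in the others (−0.80 ± 0.19, limma adjusted p = 0.105). MRPS5, which lines the entry of the mRNA channel in the bacterial ribosome, had 109 and 94.4 in CN and 172 to 226 (median 192) in the others (−0.92 ± 0.23, limma adjusted p = 0.132). MRPL13 had 499 and 495 in CN and 635 to 905 (median 704) in the others (−0.53 ± 0.17, limma adjusted p = 0.222). In each of these the CN arrays stood clear of the rest while the adjusted p stayed above 0.05. MRPS17 went the other way, with 525 and 512 in CN and 306 to 469.5 in the others (0.46, limma adjusted p = 0.417). MRPL45 had 814 and 789 in CN and 636 to 718 in the others. The remaining members of small p were MRPL30 (−0.53), MRPL51 (−0.42), MRPL21 (−0.56), MRPL53 (−0.84) and MRPS15 (−0.39), with limma adjusted p of 0.251 to 0.427.

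Most related lists also had medians below 0 in newborn CN. All 80 oxidative phosphorylation genes were lower in CN (median −0.48), and 1 of them, COX7A1, the muscle form of a cytochrome c oxidase subunit, fell (−0.88, limma adjusted p = 0.0472). None was called among translation factors (median −0.20, with TUFM at −0.45, limma adjusted p = 0.427) or import genes (median −0.13, with PMPCA at −2.12, limma adjusted p = 0.0587). Nor was any among subunits under other names with OXA1L (median −0.17) or cytosolic ribosomal proteins (median −0.15). Biogenesis regulators had a median of 0.11, and MYC averaged 2943 in CN and 658 to 1069 in the others (1.75, limma adjusted p = 0.0508). At T12 the oxidative phosphorylation median in CN was −0.21, with 74 of 80 lower and ATP5IF1 called (−0.85, limma adjusted p = 0.0464). The mitochondrial translation lists had 0 calls there.

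Several array properties differed with CN. In newborn LD the array medians were 47.4 to 48.1 in CN and 50.1 to 52.9 in CC, NC and NN. Matrix markers summed to 53036 to 56639 in CN and 68699 to 80031 in the others, and 11 endothelial markers to 2692 to 2854 in CN and 3074 to 3464 in the others. Muscle markers summed to 119216 to 139113 in CN and 137949 to 161446 in the others, and red blood cell markers to 364 to 379.6 in CN and 419.7 to 733 in the others. In newborn LD the 3′ to 5′ log2 GAPDH ratio was 0.225 to 0.230 in CN and 0.131 to 0.307 in the others. At T12 it was −0.0332 to 0.0849 in CN and 0.0433 to 0.246 in the others. The array medians at T12 were 49.65 to 51.6 in CN and 53.6 to 58.0 in the others. There matrix markers summed to 33688 to 38732 in CN and 45723 to 62253 in the others. Immune markers summed to 752 to 790.1 in CN and 903 to 1177 in the others, and 7 adipocyte markers to 402 to 565 in CN and 656 to 1045 in the others. The 9 slow-fibre contractile genes summed to 73262 to 78639 in CN and 105057 to 143000.0 in the others, and TNNT1 (−0.97, limma adjusted p = 0.037) and MYH7 (−0.89, limma adjusted p = 0.0487) fell. The part of these in the values of the ribosomal proteins was not tested.

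The age step in CN was compared with that of CC, NC and NN by an interaction term. Its median over 67 members was 0.21, with 49 positive, beside −0.02 over all symbols. A positive value means that a member was lower at T12 by less, or higher by more, in CN. Limma called 0 of 66, as it did of all probe sets (0%), and 7 had an unadjusted p under 0.05 (10.6%, against 9.08% of all probe sets). The members of smallest p were MRPS26 (0.995 ± 0.34, limma adjusted p = 0.432), MRPL20 (0.46), MRPL2 (0.65), MRPL13 (0.58) and MRPL55 (1.01), the last 4 with limma adjusted p of 0.493 to 0.527. The age and CN comparisons share the arrays of CC, NC and NN, so their values are not independent.

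SS was sampled in both CN and NN lambs at T12. There limma called 0 of 66 members and 0% of all probe sets, with 2 members at an unadjusted p under 0.05 (3.03%, against 4.16%). The median was −0.01 over the members and 0.00 over all symbols, with 34 of 67 lower in CN. MRPS34 had 130 and 91.9 in CN and 88.1 and 18.9 in NN (1.42 ± 0.36, limma adjusted p = 0.647). MRPS22, a small-subunit protein found in mitochondria only, had 241 and 258 in CN against 353 and 426 in NN (−0.64, limma adjusted p = 1). MRPL58 (−0.38), MRPS11 (−0.56) and MRPL46 (1.66) followed. The difference between the CN effect in SS and that in LD had a median of 0.06 over the members and 0.05 over all symbols. Limma called 0 of 66 (0% of all probe sets), and 1 member had an unadjusted p under 0.05 (1.52%, against 4.87%). Its members of smallest p were MRPL18 (0.81), MRPL20 (−0.46), MRPS34 (0.95), MRPS6 (0.60) and MRPS22 (−0.61), each with a limma adjusted p of at least 0.984.

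The largest difference of a member between SS and LD at T12 was that of MRPS6, the homologue of a bacterial protein of the small-subunit platform. Its signals were 3255 and 3160.0 in SS of NN and 3834 and 4404 in SS of CN, against 509 to 741 (median 561) in LD of CC, NC and NN. The muscles did not overlap. It rose by 2.45 ± 0.21 on the log2 scale (limma adjusted p = 2.21e-04). SM had 817 and 708 and ST had 464 and 688, so that SS also stood above these hind-limb muscles (2.29 ± 0.23, limma adjusted p = 0.00102). Over all 20 arrays outside SS, at both ages, MRPS6 ranged from 425 to 944 (median 601). Both calls held in all 24 fits that left out 1 array. The sheep RefSeq gene table (assembly ARS-UI_Ramb_v3.0) places SLC5A3, an inositol transporter gene, over the same stretch as MRPS6, and which transcript the probes bound was not tested.

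MRPS34 was the member that fell in SS. It had 88.1 and 18.9 in SS of NN, against 72.9 and 238 in CC, 204 and 206 in NC and 235 and 188 in NN of LD at T12. Paired arrays differed widely and the muscles overlapped. The difference was −2.13 ± 0.30 (limma adjusted p = 0.00331), and it was −3.24 without SS NN T12 replicate 1, −1.02 (limma adjusted p = 0.0745) without SS NN T12 replicate 2 and −1.84 (limma adjusted p = 0.0861) without LD CC T12 replicate 2. SM had 180.5 and 38.6 and ST had 199 and 187, which put SS at −1.64 ± 0.31 against them (limma adjusted p = 0.0372). That call was lost in 9 of 24 fits that left out 1 array, in both fits on single arrays with group as a random block (limma adjusted p = 0.107 without and 0.103 with the replicate block) and without an intensity trend. Without that trend MRPS6 was not called for SS against SM and ST either (limma adjusted p = 0.0786). With the mean over its probe sets MRPS34 was called in neither comparison, and without the trend it was not called for SS against LD. Leaving out SM NN T12 replicate 1 gave −1.08, SS NN T12 replicate 2 gave −0.53 and SS NN T12 replicate 1 gave −2.75. The value stayed at −1.64 without replicate 2 of LD NN T12, LD NC T12, LD CC T12, LD NC T0 or LD CC T0, or replicate 1 of LD NN T0 or LD NC T0, while the adjusted p rose above 0.05. A dimmer probe set of MRPS34 gave 1.42 for SS against LD and 0.05 for SS against SM and ST. EME2 overlaps MRPS34 in the same gene table, in which 17 of the 64 members found overlap another gene. Among the members called with age these are MRPL41 (with PNPLA7) and MRPS31 (with an uncharacterised gene).

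**Figure D4:**
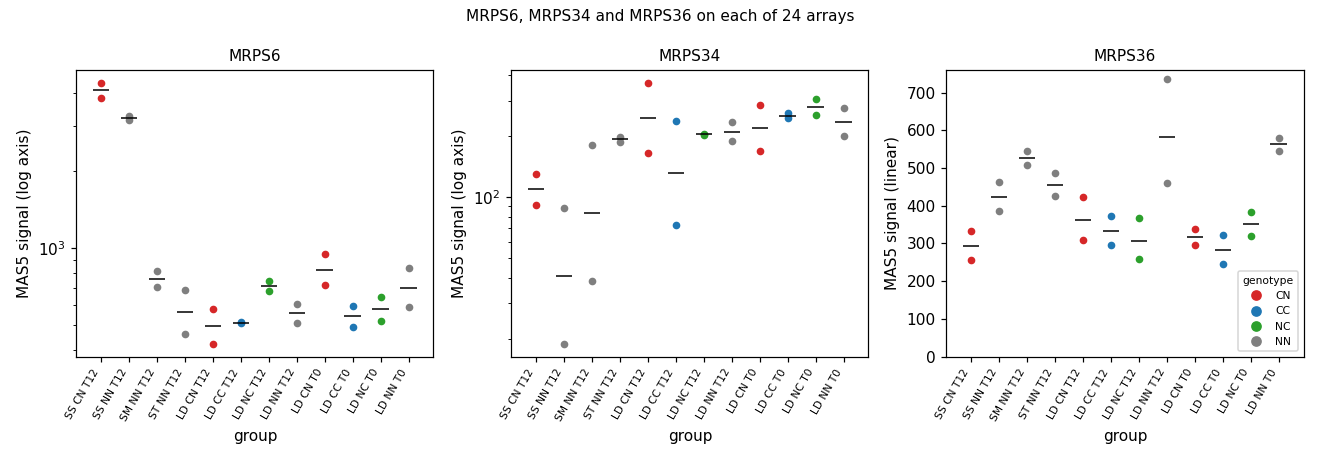
MAS5 signal of MRPS6 and MRPS34 (log axes) and MRPS36 (linear axis) on every array, by group and coloured by genotype, with bars at the group means. MRPS6 spans 3160.0 to 4404 on the 4 SS arrays and 425 to 944 on the 20 others, and the paired arrays of MRPS34 differ widely in SS of NN and in SM.

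For the whole family, SS against LD gave 1 member higher and 1 lower of 66 (3.03%, where 3.04% of all probe sets were called, 1.47% higher and 1.58% lower), with 14 at an unadjusted p under 0.05 (21.2%, against 16.1%). The median was −0.16 over 67 members, −0.24 in the large subunit and −0.05 in the small, beside −0.01 over all symbols. MRPL42 had 606 and 711 in SS of NN and 877 to 1159 in LD (−0.63 ± 0.17, limma adjusted p = 0.0742). It passed the threshold without SS NN T12 replicate 2 (−0.75, limma adjusted p = 0.0292). MRPL38 (−0.73) and MRPL23 (−0.46) came next, with limma adjusted p of 0.142 and 0.168. Against SM and ST, again 1 member of 66 was higher and 1 lower, where 0.997% of all probe sets were called, 0.455% higher and 0.541% lower. There 12 members had an unadjusted p under 0.05 (18.2%, against 12.2%), and the median was −0.16 with 47 lower. Members of smallest p beside those called were MRPL42 (−0.57, limma adjusted p = 0.211), MRPL23 (−0.44) and MRPL43 (−0.60). The other probe set of MRPL43 gave 0.11 here, and those of MRPL23 gave −0.07 and −0.33. For SS against LD those of MRPL23 gave −0.26 and −0.20.

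All 4 SS arrays, of CN and NN, were also set against the 12 T12 arrays of LD, SM and ST. MRPS6 alone was wholly higher (1.52%, where 3.49% of all probe sets were). MRPL2, MRPL23, MRPL35 and MRPL50, all of the large subunit, were wholly lower (6.06%, where 2.42% were). MRPL50 had 1586 and 1921 in SS of CN and 1943 and 1981 in SS of NN, against 2030.3 to 2918 in the other muscles. MRPL35 had 914 to 1052 in SS and 1074 to 2040 elsewhere, and MRPL23 had 774 to 946 in SS and 989 to 1423 elsewhere. MRPL2 had 681 to 765 in SS and 768 to 1283 elsewhere, so these arrays nearly met.

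Of the related lists, SS against LD called PTCD3, a small-subunit protein under another name, which averaged 20.0 in SS of NN and 62.9 to 77.7 in LD (−1.79 ± 0.42, limma adjusted p = 0.0477). That level is below the lowest array median, and PTCD3 averaged 52.2 in SS of CN and 25.8 in ST of NN. No translation factor was called there (median −0.04). Of 80 oxidative phosphorylation genes 9 fell (median −0.30), where 1.58% of all probe sets were called lower. Against SM and ST, TSFM, the exchange factor of TUFM, averaged 35.5 in SS of NN, against 133 in SM and 102 in ST (−1.71 ± 0.33, limma adjusted p = 0.0365). In SS of CN it averaged 89.0. Markers differed between the muscles as well. The 9 slow-fibre genes summed to 190964 to 200052 in SS of NN, against 124467 to 181244 in SM and ST and 105057 to 143000.0 in LD. The 7 adipocyte markers summed to 2762 to 2887 in SS of NN, against 1344 to 1536 in SM and ST and 656 to 1045 in LD. Among these markers LPL averaged 1889 in SS of NN, 675 in SM and 511 in ST, while FABP4 averaged 317, 252 and 524. The 11 endothelial markers summed to 2748 to 2873 in SS of NN, against 2895 to 4207 in SM and ST and 3259.9 to 4448 in LD. The log2 ratio of the 3′ to the 5′ GAPDH control probe set, a measure of RNA quality, was 0.0244 to 0.0583 in SS of NN, against 0.113 to 0.222 in SM and ST and 0.0433 to 0.246 in LD. The part of these in the muscle differences was not tested.

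For SM and ST against LD, limma called 0 of 66 members, where 0.0396% of all probe sets were called, and 1 member had an unadjusted p under 0.05, against 7.46% of all probe sets. The median was 0.01 over the members and −0.01 over all symbols. The members of smallest p were MRPL13 (0.30, limma adjusted p = 0.668), MRPL18 (−0.38), MRPS34 (−0.49), MRPL20 (0.21) and MRPL36 (0.82).

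Genotypes that lack the trait were compared within LD with age as a covariate. For NC against NN, limma called 0 of 66, where 0.0132% of all probe sets were called, with 2 at an unadjusted p under 0.05 (against 4.24% of all probe sets). The median was 0.01 over the members and 0.01 over all symbols. For CC against NN, limma also called 0 of 66 (0.0132% of all probe sets), with 5 at an unadjusted p under 0.05 (against 5.48%). Here the median was −0.14, with 46 of 67 lower, beside 0.00 over all symbols. The log2 ratio of the 3′ to the 5′ GAPDH probe set was 0.0663 and 0.0433 in CC and 0.187 and 0.246 in NN at T12, and 0.131 and 0.216 in CC and 0.246 and 0.307 in NN at T0. Its part in the CC values was not tested. Fits on single arrays with group as a random block called MRPL37 and MRPS36 for CC against NN. Those fits count technical arrays nearly as independent values, and the share of all probe sets called in them is not given here. MRPS36 had the smallest p in both comparisons. Its signals at T12 were 295 and 373 in CC, 258 and 367 in NC and 460 and 736 in NN. At T0 they were 245 and 324 in CC, 319.9 and 384 in NC and 545 and 581 in NN. All CC and NC arrays lay below the NN arrays of the same muscle, with differences of −0.90 ± 0.18 for CC (limma adjusted p = 0.375) and −0.80 ± 0.18 for NC (limma adjusted p = 0.927). Over all 12 groups, means of MRPS36 were 282 to 361 in the 7 groups with the mutation (CN, CC and NC). They were 422 to 582 in the 5 NN groups, which include SM and ST, sampled in NN only. The ranges did not overlap. MRPS36 was the only one of 66 members so split (0.198% of all probe sets were lower in this way and 0.132% higher). This split was noticed in the values, so no test is given. After MRPS36 came MRPL37 (−0.45), MRPS14 (−0.44), MRPL34 (−1.04) and MRPL15 (−1.14) for CC, and MRPL16 (0.45), MRPS25 (−0.59), MRPS7 (0.39) and MRPS9 (0.29) for NC.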

How the data were processed

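The authors deposited 1 linear intensity for each probe set and array, which MAS5 had computed per the submitters' processing notes. No version of it is given in the sources used here. Per the labels' protocols, 5 µg of RNA per array was labelled. The 2% trimmed mean was 200.08 to 200.093 on every array, so one common scale had been set. Of 579072 values, 5477 at or below 1 were set to 1 before log2. None of 1608 member values was among them.

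Control probe sets (112) were left out, and 15153 of 24128 probe sets above the median log2 signal in at least 1 group were tested. Symbols came from the platform annotation of 2016, in which 13292 probe sets have 1 symbol and 86 have several, and 64 of the 67 members occur in the sheep RefSeq gene table. The 2 technical arrays of a group were averaged to 1 value.

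Tests used limma 3.58.1 in R 4.3.3 (lmFit, then eBayes with a trend on intensity). They were two-sided, with an adjusted p under 0.05 by Benjamini-Hochberg over all tested probe sets. Only the comparison of CN in LD at T12 was checked on simulated data, in which all groups varied alike. The 12 group values formed 8 cells, and the 3 LD groups of one age that lack the trait shared a cell. This left 4 residual degrees of freedom, and groups with 1 value are assumed to vary like those cells. NC and CC were each set against NN in a fit of the 8 LD groups that adjusted for age and left 3 residual degrees of freedom. SS, SM and ST were compared with LD using SS, SM and ST of NN lambs and LD of CC, NC and NN. Differences are log2 differences of MAS5 signal ± SE.

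In each comparison, members past the threshold were named, filled up to 10 (the CN comparisons in LD and the age comparison) or 5 by smallest p. The widest and narrowest 6 spans among members brighter than the median probe set were also named, along with up to 3 called genes per related list. Members named for arrays that do not overlap, and the tracing of MRPS36, lie outside that rule. Members and lists were chosen with earlier results of these data known. Alternatives were a floor of 16, quantile normalization, no filter, a mean log2 above 7, the mean over a symbol's probe sets, CC as a cell of its own, single arrays with group as a random block (statmod 1.5.0), no trend, and leaving out each array. The number of arrays limits the precision.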

Additional observations from a re-analysis of the deposited data

How the results depend on the processing

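Precision is limited by 2 technical arrays per group, by 1 group value in most cells and, for 8 members, by signals near the lowest array median. Over the alternatives, the summaries (counts of calls and family medians) stayed near the reported value in 171 settings and moved in 19. Values of named genes kept direction and side of the threshold in 634, lost the call in 30, gained one in 22 and changed sign in 4, apart from fits without 1 array. Most of these values were not called in the reported fit and so had no call to lose. Of the calls, only MRPL41 with age and MRPS6 in SS against LD held in all 9 alternatives. Scaling by quantiles moved the all-symbol median by at most 0.0589.

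In newborn CN, 0 calls became 1 with mean log2 above 7 and 2 with CC as a cell of its own, where the median was −0.27. For T12 against T0 the 11 calls became 1 without an intensity trend, and 9, all lower, with CC as a cell of its own. The median became −0.22 after quantile normalization and −0.23 with CC as a cell of its own. For SS against LD the 2 calls became 1 with the mean over probe sets, where the median was −0.0839, and 1 without the trend. Against SM and ST they became 1 with the mean over probe sets and 0 without the trend. In none of these was the cause tested, and the shares of all probe sets called are not given here. Values that changed sign were MRPS36 with age (−0.070) and in SS against LD (−0.0030) with CC as a cell of its own, and MRPS34 in the difference between the CN effects (−0.0177) and in SM and ST against LD (0.44) with the mean over probe sets.

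Replicate numbers gave no pairing, since deviations of same-numbered arrays correlated at −0.087 to 0.102 (median 0.0175 over 66 pairs of groups). Fits on the 24 arrays with group as a random block and no replicate block called 4 members in newborn CN, 21 with age, 6 for SS against LD, 2 for SS against SM and ST (MRPS6 and MRPL42, not MRPS34) and 2 for CC against NN. With the replicate block these were 3, 18, 6, 3 and 1. Shares of all probe sets called in these fits are not given here. The correlation between arrays of a group was estimated at 0.023 without and 0.041 with that block over all groups. In the fit of the LD groups it was 0.059 and 0.108. Technical arrays were thus counted nearly as independent values, with 16 and 15 residual degrees of freedom over all groups in place of 4.

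Without each array in turn, calls and medians ranged as follows. CN at T12 gave 0 to 1 and −0.08 to −0.04, and CN at T0 gave 0 to 1 and −0.23 to −0.16. Age gave 5 to 12 and −0.22 to −0.13, and its interaction with CN gave 0 and 0.15 to 0.27. CN in SS gave 0 and −0.04 to −0.01, and the difference of CN effects 0 and 0.00 to 0.08. SS against LD gave 1 to 2 and −0.20 to −0.0924, SM and ST against LD 0 and −0.0374 to 0.0884, and SS against SM and ST 1 to 2 and −0.20 to −0.11. NC gave 0 and −0.03 to 0.03, and CC 0 and −0.16 to −0.0864. Sign changed within these ranges for MRPS27 (−0.88 to 0.24) and MRPS36 (−0.34 to 0.12) in CN at T12, and for MRPS36 with age (−0.0806 to 0.15), in the interaction (−0.0655 to 0.39) and in SS against LD (−0.0193 to 0.25). It also changed for MRPS34 in the difference of CN effects (−0.16 to 2.06) and in SM and ST against LD (−1.05 to 0.0648).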

Other observations

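The lower MRPS36 group means of carriers of the mutation, set against those of NN lambs, also hold outside the LD comparison of CC and NC with NN. On single arrays the ranges met, at 245.0 to 423 (median 322) over 14 carrier arrays and 385.0 to 736 (median 498) over 10 NN arrays. In LD of CN the signals were 309 and 423 at T12 and 337.5 and 295 at T0. In SS they were 333 and 257 in CN and 385.0 and 463 in NN, and NN lambs had 546 and 509 in SM and 487 and 425 in ST. Of all 15153 probe sets, 30 had a lower mean in each carrier group than in each NN group and 20 a higher one. In CN against CC, NC and NN its log2 difference was −0.11 at T12 and −0.27 at T0 (limma adjusted p = 0.966 and 0.871), where CC and NC are on the other side of the comparison. With age it was 0.03 ± 0.28 (limma adjusted p = 0.956). For SS of NN against LD of CC, NC and NN it was 0.11, where the LD side again includes CC and NC. Among NN lambs alone, the SS mean of MRPS36 lay below the LD mean at T12. Against SM and ST, all of NN, the log2 difference of SS was −0.21.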
